A study of Mus musculus with 8 samples.

Results

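The AP-1 and immediate early transcription factors described here are 10 genes taken by symbol, Fos, Fosb, Fosl2, Jun, Junb, Jund, Batf, Atf3, Egr1 and Egr2, from the 56980 genes of one mouse expression matrix. All 10 were found, and 9 of them were among the 21991 genes with enough counts to be tested. Egr2 was not. The matrix holds RNA-seq counts of regulatory T cells (Tregs, CD4 T cells that restrain immune responses), sorted by flow cytometry from the peripheral blood of male C57BL/6j mice that were 8 weeks old when obtained. The study defines Tregs as CD4+CD25+ cells in its co-culture assay, and its sequencing methods name no markers for the sorted cells. In the high-altitude de-acclimatization (HADA) group, mice lived in a hypobaric chamber set to 6000 m for 28 days and then returned to normal air, and control mice stayed outside the chamber. Both groups had 4 libraries, made with a low-input cDNA kit because few cells were sorted. The methods give a day after the return for Tregs used in co-culture but not for those sequenced, and do not say whether the 4 libraries of a group are 4 animals, so the p-values measure the spread between these libraries, which may be technical. CD25 is also carried by activated conventional T cells. In bulk RNA, fewer cells of a type and less RNA per cell cannot be told apart.

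AP-1 is a dimer of basic leucine zipper (bZIP) proteins. FOS proteins cannot pair with themselves and bind DNA as partners of JUN proteins, at the AP-1 site TGANTCA or, with ATF and CREB partners, at the cAMP response element (CRE). BATF has no transactivation domain of its own and, with a JUN partner and IRF4 or IRF8, binds composite sites in T cells. EGR1 and EGR2 are zinc finger factors that bind GC-rich sites. Many of these genes are immediate early genes, whose transcription starts within minutes of a stimulus such as antigen receptor signalling and needs no new protein synthesis, mainly through serum response factor (SRF) at CArG boxes and CREB at the CRE.

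The promoters of the 3 FOS family genes are shown because these genes differed most among themselves in how HADA and control compared. Each is the 250 bases before the transcript start of the GENCODE vM39 canonical transcript in GRCm39, read 5′ to 3′ on the strand of the gene, and none of these bases lies in an annotated exon. Gene positions further down are those of the deposited matrix, whose gene models differ slightly from these. Capitals mark matches on either strand to the CRE core TGACG, which on the other strand reads CGTCA, or to the EGR site GCGNGGGCG. Fos lies at chr12:85520408-85520657 (plus strand), Fosb at chr7:19043977-19044226 (minus strand) and Fosl2 at chr5:32292457-32292706 (plus strand).
Fos: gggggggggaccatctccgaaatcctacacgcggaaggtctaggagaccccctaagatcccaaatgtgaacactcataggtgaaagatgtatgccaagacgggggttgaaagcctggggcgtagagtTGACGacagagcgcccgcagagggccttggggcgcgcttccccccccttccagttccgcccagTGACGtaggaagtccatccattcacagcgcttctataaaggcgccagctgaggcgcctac
Fosb: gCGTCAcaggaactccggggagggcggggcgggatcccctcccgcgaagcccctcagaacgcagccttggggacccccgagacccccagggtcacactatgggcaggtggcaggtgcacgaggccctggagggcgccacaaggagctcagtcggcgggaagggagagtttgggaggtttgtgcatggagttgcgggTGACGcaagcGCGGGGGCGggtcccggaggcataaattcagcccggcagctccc
Fosl2: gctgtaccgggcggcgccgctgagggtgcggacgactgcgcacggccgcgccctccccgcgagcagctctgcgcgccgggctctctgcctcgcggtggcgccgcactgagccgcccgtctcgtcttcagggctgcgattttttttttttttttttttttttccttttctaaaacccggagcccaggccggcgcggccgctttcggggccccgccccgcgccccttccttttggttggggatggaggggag

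Fos has the core at bases -123 to -119 and -60 to -56 from the start. Fosb has it at -249 to -245 and -54 to -50, and an EGR site at -44 to -36. The Fosl2 window holds none of the 5 motifs searched, which were the full CRE TGACGTCA (which contains the core on both strands), the core, the AP-1 site TGANTCA, the EGR site and the CArG box. The core was in the windows of 7 of the 10 genes and in 18% of 21631 protein-coding promoters of the same length. The full CRE was in 1 of 10 (Jund), against 1.69% of all promoters. The EGR site was in 2 of 10 (Fosb and Jund), against 4.47%. The CArG box was in 1 of 10 (Egr2), against 1.41%, and the AP-1 site was in 0 of 10, against 6.19%. A match is a description of these letters only.

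Total counts ran from 22929193 to 28240337 in HADA and from 1477431 to 22584062 in control, where control replicate 1 had the fewest counts. This library stood apart from the other controls, and the fold changes of the tested factors are given with and without it. Nothing in the data checks its label, since no gene was altered in either group, and every fold change of HADA over control takes the label as given. Counts in spans shared by more than 1 gene are missing from the matrix: all 1077 protein-coding genes covered completely by other genes were at 0 in every library, Foxp3 among them. Of 9 Treg and T cell markers, 7 were detected, and Foxp3 and Tnfrsf18 were at 0 and completely covered. As a measure of counts from unexpressed regions, 1393 genes for olfactory or vomeronasal receptors, free of overlaps, held 2 to 5.34 counts per kb of span in HADA and 0.0793, 10.8, 8.25 and 3.48 in control replicates 1 to 4. That density times the counted length of a gene, the bases of its span that no other gene overlaps, is called its receptor-gene expectation below.

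Levels are given in CPM, in which TMM factors put the counts of all libraries on 1 scale, with replicates 1 to 4 in order. These factors were 0.901, 1.05, 0.673 and 0.628 in HADA and 1.09, 2.24, 1.28 and 0.802 in control. A larger factor gives a lower CPM for the same share of counts, and the largest was that of control replicate 2. Fold changes are log2 values of HADA over control with their standard errors, from edgeR, and a gene was called at a Benjamini-Hochberg adjusted p below 0.05 over all genes tested and a log2 fold change beyond 1.

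**Figure D1:**
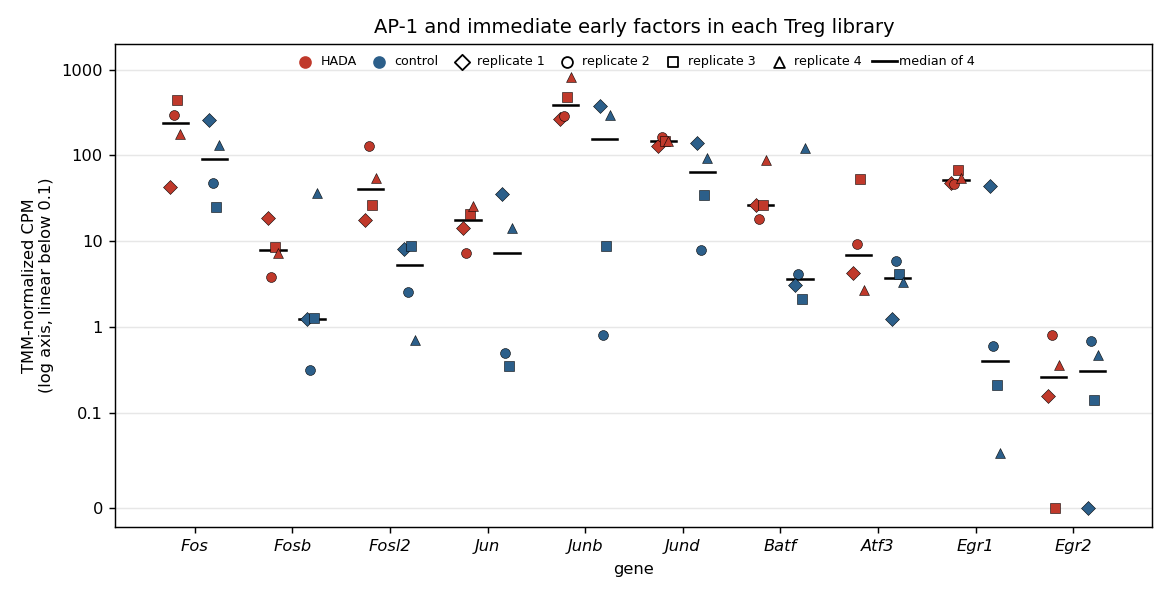
TMM-normalized CPM (vertical axis, logarithmic above 0.1 and linear below it) of the 10 genes in every library, with HADA in red, control in blue, the replicate number as the marker and the median of each 4 as a black bar. The Egr1 points of HADA lie between 45.9 and 66.9, with control replicate 1 just under them at 44.1 and control replicates 2 to 4 at 0.595 or less.

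Fosl2 (ENSMUSG00000029135, chr5:32293145-32315186, plus strand) encodes FRA-2, a FOS family protein without the strong transactivation domain of FOS. Its level was 17.6, 130, 26.1 and 54.9 CPM in HADA and 8.08, 2.54, 8.73 and 0.695 CPM in control. Every HADA library was above every control library, the lowest HADA value being 17.6 and the highest control value 8.73. The means were 57.1 ± 51.0 CPM (SD, n = 4) and 5.01 ± 4.0 CPM (SD, n = 4), and the log2 fold change was 3.53 (SE 1.08). This missed the threshold over all genes (edgeR adjusted p = 0.0963). Without control replicate 1 it was 3.97 (SE 1.17, edgeR adjusted p = 0.0339), and with DESeq2 on all 8 libraries 3.41 (adjusted p = 0.00515). Over all alternatives tried, the log2 fold change ran from 2.70 to 4.32 and the adjusted p from 0.00515 to 0.743. HADA and control also did not overlap when counts were scaled by the total count or by DESeq2 size factors. The gene is long and its control counts are low, from 12 to 250. Relative to the receptor-gene expectation, its counts were 3.80, 31.7, 6.94 and 20.7 times in HADA and 7.44, 0.341, 1.38 and 0.156 times in control. On this measure the groups overlapped, since control replicate 1 was above HADA replicates 1 and 3.

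Fos (ENSMUSG00000021250, chr12:85520664-85524047, plus strand) encodes the founding FOS protein and is among the fastest genes to respond to a stimulus. Its level was 42.9, 298, 444 and 177 CPM in HADA and 257, 47.1, 25.0 and 134 CPM in control. The groups overlapped, since HADA replicate 1 was below 3 of the 4 controls and control replicate 1 was above HADA replicates 1 and 4. The means were 240.0 ± 171 CPM (SD, n = 4) and 116 ± 105 CPM (SD, n = 4), with a log2 fold change of 1.06 (SE 0.92, edgeR adjusted p = 0.441). Within both groups the highest library was about an order of magnitude above the lowest, 10.3-fold in HADA and 10.2-fold in control. Without control replicate 1 the log2 fold change was 1.93 (SE 0.95, edgeR adjusted p = 0.139).

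Fosb (ENSMUSG00000003545, chr7:19036621-19043976, minus strand) is a paralog of Fos with a similar fast response. Its level was 18.8, 3.81, 8.45 and 7.33 CPM in HADA and 1.24, 0.313, 1.26 and 36.0 CPM in control. Control replicate 4 was the highest of the 8 libraries, and the other controls were below every HADA library. In counts, control replicate 1 held 2, under the floor of 3 counts taken as detectable, and control replicate 4 held 621. The log2 fold change was -0.03 (SE 1.24, edgeR adjusted p = 0.988). It was 3.48 without control replicate 4 (edgeR adjusted p = 0.146) and -0.28 without control replicate 1.

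Junb (ENSMUSG00000052837, chr8:85701113-85705347, minus strand) encodes a JUN protein and a partner of BATF in T cells. Its level was 263, 291, 484 and 816 CPM in HADA and 380, 0.814, 8.70 and 299 CPM in control. Control replicates 1 and 4 lay within the HADA range, and control replicates 2 and 3 were far below it. The spread was 3.10-fold among HADA libraries and 467-fold among controls, and the log2 fold change was 1.43 (SE 1.29, edgeR adjusted p = 0.459). The value was 2.27 without control replicate 1 (SE 1.61, edgeR adjusted p = 0.285). The 26 counts of control replicate 2 were 0.622 times the receptor-gene expectation. Prdx2 overlaps 8.29% of the span, which is not counted.

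Jund (ENSMUSG00000071076, chr8:71151599-71153265, plus strand) encodes the JUN protein that is made most steadily and reacts least to stimuli. Its level was 129, 164, 148 and 147 CPM in HADA and 139, 7.89, 34.9 and 94.0 CPM in control. The HADA libraries were close together, with a 1.27-fold spread, and control replicate 1 lay among them while the other controls were lower. The means were 147 ± 14.1 CPM (SD, n = 4) and 68.8 ± 58.8 CPM (SD, n = 4), with a log2 fold change of 1.10 (SE 0.85, edgeR adjusted p = 0.39). The value was 1.80 without control replicate 1 (SE 0.84, edgeR adjusted p = 0.123). With DESeq2 size factors the groups did not overlap, the lowest HADA value being 1995 and the highest control value 1869 normalized counts. With TMM or total-count scaling they overlapped. Gm11175 overlaps 55.1% of the gene, so its values rest on 748 bases.

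Jun (ENSMUSG00000052684, chr4:94937271-94940459, minus strand) encodes c-JUN, the strongest activator of the JUN proteins. Its level was 14.4, 7.20, 21.0 and 26.0 CPM in HADA and 35.4, 0.501, 0.349 and 14.1 CPM in control. Control replicate 1 was the highest of all 8 libraries, and control replicates 2 and 3, with 16 and 10 counts, were the lowest. The log2 fold change was 0.47 (SE 1.22, edgeR adjusted p = 0.805), and it was -0.30 when all libraries were drawn down to the smallest total. The value was 1.89 without control replicate 1 (SE 1.29, edgeR adjusted p = 0.268). The antisense gene Junos overlaps 21.6% of Jun, which is not counted.

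Batf (ENSMUSG00000034266, chr12:85733443-85755861, plus strand) is needed for effector differentiation of Tregs in tissues and for several helper T cell fates. Its level was 26.5, 18.1, 26.1 and 87.6 CPM in HADA and 3.11, 4.16, 2.10 and 121 CPM in control. As for Fosb, control replicate 4 was the highest library and the other 3 controls were below every HADA library. The log2 fold change was 0.27 (SE 1.26, edgeR adjusted p = 0.892), and without control replicate 4 it was 3.73 (edgeR adjusted p = 0.136). The value was -0.00 without control replicate 1 (SE 1.33). Control replicates 2 and 3 held 0.551 and 0.325 times the receptor-gene expectation, and control replicate 4 held 26.8 times.

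Atf3 (ENSMUSG00000026628, chr1:190902493-190950236, minus strand) encodes a stress-induced bZIP factor that mostly represses. Its level was 4.30, 9.34, 52.7 and 2.71 CPM in HADA and 1.24, 5.89, 4.19 and 3.30 CPM in control. HADA replicate 3 was high and the other 7 libraries overlapped. The log2 fold change was 2.20 (SE 1.03, edgeR adjusted p = 0.19), and without HADA replicate 3 it was 0.68 (edgeR adjusted p = 0.588). The value was 2.10 without control replicate 1 (SE 1.08, edgeR adjusted p = 0.153). In 6 of the 8 libraries Atf3 counts were at or under 0.53 times the receptor-gene expectation, and only HADA replicates 2 and 3 exceeded it, 1.06-fold and 6.49-fold. Control replicate 1 held 2 counts, under the floor.

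Egr1 (ENSMUSG00000038418, chr18:34992876-34998037, plus strand) is the EGR gene that follows growth factor and antigen receptor signals through ERK and SRF. Its level was 47.2, 45.9, 66.9 and 55.3 CPM in HADA and 44.1, 0.595, 0.21 and 0.0579 CPM in control. HADA libraries lay within a 1.46-fold range. Control replicate 1 was at nearly the HADA level, with 71 counts, and control replicates 2 to 4 held 19, 6 and 1 counts, the last under the floor. The means were 53.8 ± 9.65 CPM (SD, n = 4) and 11.2 ± 21.9 CPM (SD, n = 4), and the log2 fold change was 2.31 (SE 1.58, edgeR adjusted p = 0.333). HADA and control did not overlap with TMM (45.9 against 44.1 CPM) or size factors (687 against 595 normalized counts). They overlapped with total-count scaling (34.6 against 48.1 CPM without TMM). Without control replicate 1 the log2 fold change was 7.66 (SE 0.98, edgeR adjusted p = 0.0048), which passed the test. This fit leaves out the 1 control at the HADA level, and fitted folds of such low counts depend on the default prior count of the edgeR fit. Relative to the receptor-gene expectation, Egr1 was 43.4 to 89.0 times in HADA, 174 times in control replicate 1 and 0.342, 0.141 and 0.0557 times in control replicates 2 to 4.

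Egr2 (ENSMUSG00000037868, chr10:67371305-67378018, plus strand) encodes the EGR factor tied to T cell anergy. It held 4, 19, 0 and 6 counts in HADA and 0, 22, 4 and 8 in control. These are levels of 0.796 CPM or less, with overlapping groups, and all 8 libraries were below the receptor-gene expectation. A count of 0 allows up to 3 counts, and no fold change is given.

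**Figure D2:**
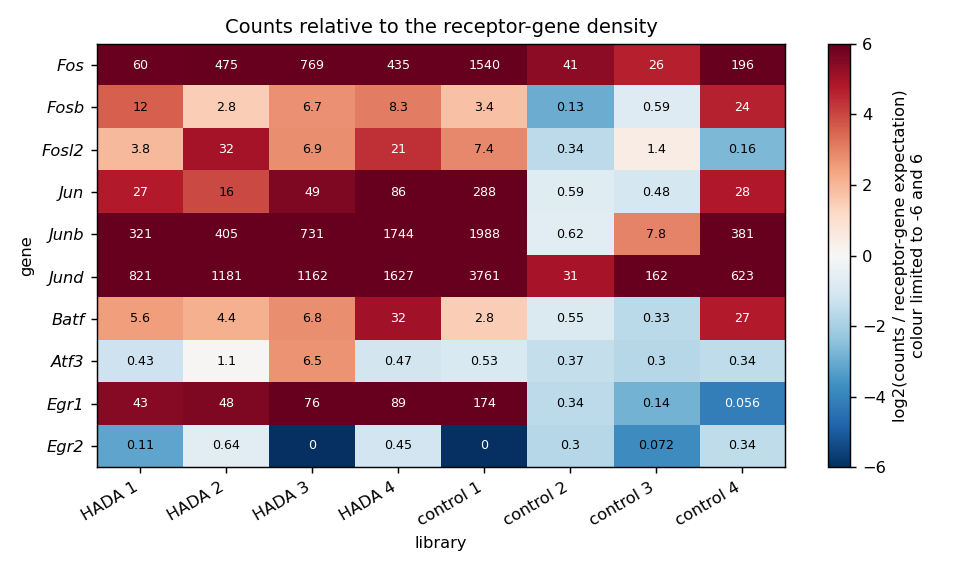
Counts of each gene (rows) in each library (columns) divided by the receptor-gene expectation for its counted length, printed in the cell and coloured on a log2 scale. Control replicate 2 has 8 of the 10 genes below 1, control replicate 3 has 6 and control replicate 4 has 4, against 1 or 2 in every HADA library and 2 in control replicate 1.

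Of the 9 tested genes, edgeR called 0 higher in HADA, against 1.65% of all genes, and 0 lower, against 0.477%, or 2.13% in either direction. At an unadjusted p below 0.05, 1 was higher (Fosl2), against 12% of all genes, and 0 were lower, against 14.7%. DESeq2, which gave no adjusted p for Fosb and Batf, called 1 higher (Fosl2), against 6.23% of its genes, and 0 lower, against 10.1%. Limma called 0 higher, against 3.7%, and 0 lower, against 0.346%. With the replicate number as a block, edgeR called 0 higher, against 0.718%, and 0 lower, against 0.05%. In 2 of 9 genes, Fosl2 and Egr1, every HADA library was above every control library in CPM, which holds for 9.13% of all genes, and the opposite held for 0 of 9, against 5.7%. In 3 of 9, Fosl2, Jund and Egr1, every HADA library was above control replicates 2 to 4, which holds for 18.4%. Jund was the 1 of these whose level in control replicate 1 was at or above that of the lowest HADA library, a pattern of 9.28% of all genes. Without control replicate 1, 2 of 9 were called higher, Fosl2 and Egr1, against 15.5% of all genes, and 0 lower, against 19.7%.

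The log2 fold change was above 0 for 8 of the 9 genes (all but Fosb), against 50.2% of all genes, with a median of 1.10 against 0.01. The medians were 1.93 and -0.02 without control replicate 1. With DESeq2 size factors the median of all genes moved to -0.19, and relative to it 8 of 9 were still above. Subtracting the receptor-gene density from each library's counts moved the median of all genes to 1.0, and relative to that median 3 of the 8 genes then tested were above it: Fosl2 by 3.32, Egr1 by 1.18 and Junb by 0.14. Relative to it, Fos was at -0.69, Jund at -0.31, Jun at -0.80 and Batf at -1.15, all of which had been above the median of all genes before this step. Fosb was at -1.22, and Atf3 was not fitted. Fosl2, Egr1 and Junb were above the median of all genes under each of these scalings and in the draw-down to the smallest total, where Jun and Batf were below it. In the main test, lists of blood cell markers, described below, were also mostly above 0, except erythroid markers. Treg and T cell markers had a median of 2.57 (7 of 7 above 0), platelet markers 2.26 (5 of 5) and CD8 T and NK cell markers 2.78 (5 of 7). Myeloid markers had 1.24 (8 of 9), B cell markers 0.60 (5 of 5) and erythroid markers -3.65 (0 of 6).

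**Figure D3:**
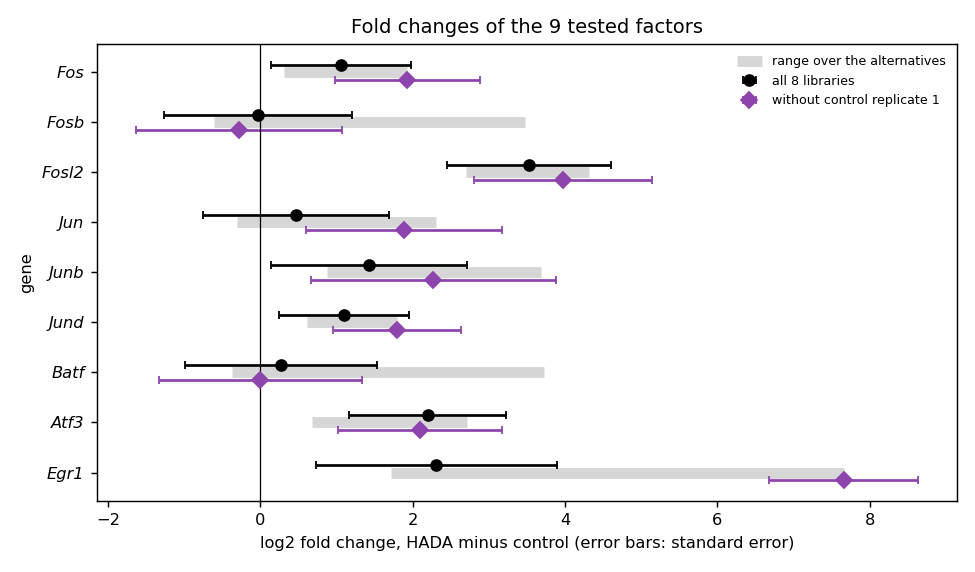
Log2 fold change of HADA over control (horizontal axis) for the 9 tested genes, with all 8 libraries (black circles) and without control replicate 1 (purple diamonds), error bars giving the standard error and grey bars the range over the alternatives. The Egr1 value moves from 2.31 to 7.66 when control replicate 1 is left out, and the Fosb and Batf ranges lie on both sides of 0.

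Levels between genes were compared as CPM per kb of exon sequence that no other gene overlaps. In HADA the medians were 197 for Jund, 177 for Junb and 101 for Fos. They were 18.7 for Batf, 11.4 for Egr1, 7.07 for Jun, 4.07 for Fosl2, 2.80 for Atf3, 1.26 for Fosb and 0.0761 for Egr2. Each neighbouring pair in this order overlapped in range among the HADA libraries except Fosb and Egr2. In control the order of medians was Jund (86.2), Junb (70.0), Fos (38.4), Jun (2.92), Batf (2.59), Atf3 (1.54), Fosl2 (0.533), Fosb (0.20), Egr1 (0.0897) and Egr2 (0.0886), and all neighbours overlapped. Jund or Junb led in every library except control replicate 2, where Fos did. Egr1 took place 5 or 6 of the 10 in each HADA library and in control replicate 1, and place 9 or 10 in control replicates 2 to 4. Because counts include introns, these values overstate the mature transcript of genes with long introns such as Batf and Atf3.

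The patterns over the 8 libraries were compared as the root mean square (RMS) difference of log2 CPM, each gene centred on its mean. Fosb and Batf were nearest to each other (1.06), both with their peak in control replicate 4. Fos and Jund were nearest to each other (1.17). Jund was also the nearest for Jun (1.29) and Fosl2 (1.89). Junb was nearest to Jun (1.37), Atf3 to Fos (1.66) and Egr1 to Fosl2 (2.26). For every one of the 9 genes, some gene outside the 10 was closer: Slamf7 for Fos (0.29), Ezh1 for Fosb (0.73), Bad for Fosl2 (0.81), Khdc4 for Jun (0.27), Grina for Junb (0.36), Rpl8 for Jund (0.25), Clns1a for Batf (0.45), Syt5 for Atf3 (0.42) and Trp53 for Egr1 (0.32). These are the closest of 21991 genes over 8 libraries that share depth and background, and are given as a description.

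Genes around these factors were taken from 5 lists: related bZIP factors, other immediate early genes, upstream kinases and SRF factors, partners and regulators of AP-1 and EGR proteins, and T cell target genes. Of 81 listed genes 69 were tested, and edgeR called 0 in either direction, against 1.65% higher and 0.477% lower among all genes. At an unadjusted p below 0.05, 7 were higher, against 12% of all genes, and 0 lower, against 14.7%. In 7 of the 69 every HADA library was above every control library, against 9.13% of all genes. The opposite held for 0, against 5.7%. DESeq2 called 4 of the 77 it fitted higher, against 6.23%, and 0 lower, against 10.1%. Without control replicate 1 edgeR called 16 of 71 higher, against 15.5%, and 0 lower, against 19.7%. The median log2 fold change was 1.23, against 0.01 for all genes, and 58 of the 69 were above 0, against 50.2%. After subtraction of the receptor-gene density, 32 of the 60 then tested were above the median of all genes.

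Among 9 tested related bZIP factors the median log2 fold change was 1.28. Atf2, which pairs with JUN at CRE-like sites, had 2.07 (SE 0.79, edgeR adjusted p = 0.138). It was 74.6, 92.2, 205 and 73.1 CPM in HADA and 51.0, 22.8, 18.2 and 14.3 CPM in control, without overlap, and it was called by DESeq2 and without control replicate 1. Creb1, which encodes the factor that binds the CRE, had 1.76 (SE 0.87, edgeR adjusted p = 0.207) and Maf 1.61 (SE 0.86, edgeR adjusted p = 0.235), also without overlap. Fosl1, the remaining FOS family gene, was at 0.481 CPM or less in every library and not tested.

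Other immediate early genes had a median of 1.29 over 27 tested, with 22 above 0, against 50.2% of all genes. Their median was 2.44 without control replicate 1. The 3 with the smallest p-values were Dusp1, an inducible phosphatase that ends MAP kinase signalling (2.0, SE 0.95, edgeR adjusted p = 0.197), Ier3 (3.31, SE 1.77, edgeR adjusted p = 0.235) and the zinc finger factor Klf6 (2.02, SE 1.17, edgeR adjusted p = 0.26). Klf6 was 546 to 1113 CPM in HADA and 439, 3.98, 12 and 277 CPM in control. Control replicate 1 was at or above the lowest HADA library for 24 of these 27 genes and 4 of the 9 factors, against 54.1% of all genes. It was above the other 3 controls for 20 of 27 and 5 of 9, against 29.5%. Control replicates 2 and 3 were both below every HADA library for 17 of 27 and 7 of 9, against 25.2%. These groupings of the controls were chosen after the levels were seen, and the shares are descriptions. Without control replicate 1, 4 of the 27 were called higher, against 15.5% of all genes. They were Egr3 (5.92), Ier3 (7.07), Dusp2 (6.51) and Zfp36l2 (2.92). Egr3, the EGR paralog, was 4.10, 3.02, 36.3 and 11.9 CPM in HADA and 14.3, 0.157, 0.349 and 0.232 CPM in control, so that control replicate 1 lay within the HADA range. The same held for Ier3 (6.21 CPM in control replicate 1, 0.671 to 38.4 in HADA), Dusp2 (98.2, 51.7 to 174) and Zfp36l2 (417, 327 to 452). These calls thus leave out the 1 control at the HADA level.

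**Figure D4:**
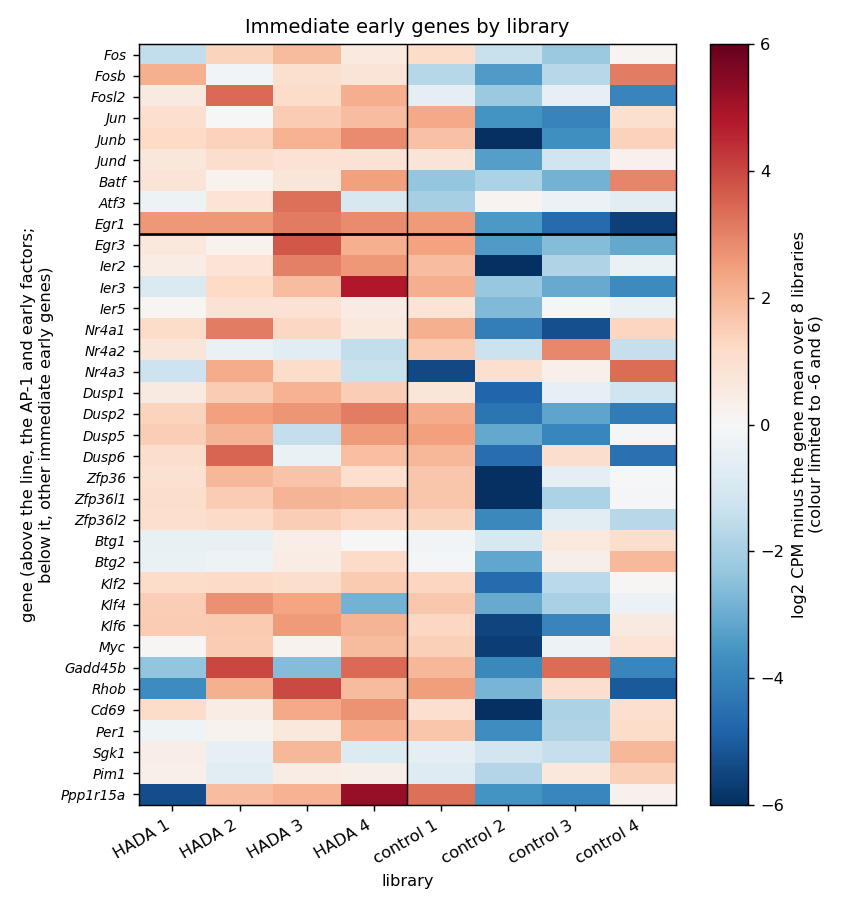
Log2 CPM of each tested factor (above the line) and of each other tested immediate early gene (below it), minus the gene mean over the 8 libraries, in colour. Control replicates 2 and 3 were both below every HADA library for 17 of the 27 genes below the line, and control replicate 1 was at or above the lowest HADA library for 24 of them.

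Upstream of these genes, the 19 tested kinases and SRF factors had a median of 0.87, and 17 were above 0, against 50.2% of all genes. Map2k6, the kinase that activates p38, had 2.28 (SE 0.74, edgeR adjusted p = 0.106). It was 63.1, 130, 101 and 111 CPM in HADA and 14.9, 30.2, 23.7 and 14.3 CPM in control, without overlap and with control replicate 1 at the control level. DESeq2 called it, as did edgeR without control replicate 1. The other kinase of p38, Map2k3, had 2.43 (SE 1.11, edgeR adjusted p = 0.185), and Rps6ka3, which encodes the ERK-activated kinase RSK2, had 1.97 (SE 0.87, edgeR adjusted p = 0.178).

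The 10 tested partners and regulators had a median of 1.15. Cops5, first described as a coactivator of JUN, had 2.33 (SE 1.10, edgeR adjusted p = 0.195), the EGR corepressor Nab2 2.73 (SE 1.34, edgeR adjusted p = 0.205) and Irf4, the partner of BATF, 1.85 (SE 1.12, edgeR adjusted p = 0.282). Of the 8 T cell target genes 4 were tested, all above 0, against 50.2% of all genes, with a median of 2.5. Cblb, a ubiquitin ligase gene that EGR2 and EGR3 induce, had 1.91 (SE 0.71, edgeR adjusted p = 0.132), at 506, 332, 291 and 325 CPM in HADA and 181, 67.9, 43.2 and 94.2 CPM in control, without overlap. Fasl had 4.93 (SE 1.48, edgeR adjusted p = 0.0924), and the cytokine gene Il4 3.10 (SE 1.4, edgeR adjusted p = 0.182). Both varied widely among HADA libraries, Fasl from 0.276 to 92.8 CPM and Il4 from 0.591 to 103 CPM.

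**Figure D5:**
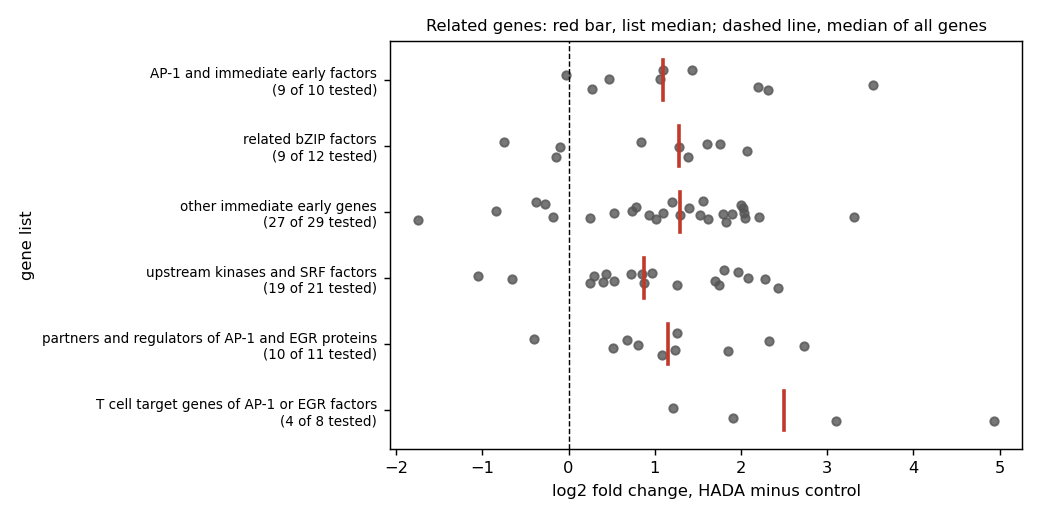
Log2 fold change of HADA over control (horizontal axis) of every tested gene of the 10 factors and the 5 related lists, 1 point a gene, with the list median as a red bar and the median of all genes, 0.01, as a dashed line. List medians lie between 0.87 and 2.5.

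Markers of other blood cells were summed over each list as CPM. Myeloid markers (10 of 10 with any count, but Itgam with only 2, in HADA replicate 1) were 1387 to 3968 in HADA and 1852, 82.9, 411 and 1184 in control replicates 1 to 4. B cell markers (5 of 6 detected) were 2003 to 6360 in HADA and 5042, 203, 1241 and 3104 in control. Both lists were low in control replicates 2 and 3, which also had the highest receptor-gene densities, 10.8 and 8.25 counts per kb. In both libraries 7 of the 9 tested factors, against 25.2% of all genes, were below every HADA library. Control replicates 2 and 3 were picked out after these levels were seen, so this share is a description only. The 7 detected Treg and T cell markers were lowest there too, with 2043 to 5486 in HADA and 1522, 290, 668 and 992 in control. Every HADA sum of this list was above every control sum. For 3 of these 7 genes, Ctla4, Cd3d and Cd3g, every HADA library was above every control library, against 9.13% of all genes. Platelet markers (6 of 6 detected) were 325 to 1680 in HADA and 546, 51.9, 58.8 and 372 in control, also lowest in control replicates 2 and 3. CD8 T and NK cell markers (8 of 8 detected) were 79.7 to 952 in HADA and 74.6, 9.24, 92.0 and 105 in control. Erythroid markers (6 of 7 detected) were 146 to 2807 in HADA and 28367, 1029, 4143 and 7310 in control, highest in control replicate 1. Ms4a1, Alas2, Foxp3 and Tnfrsf18 were at 0 in all libraries, and all are completely covered by other genes.

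Of the markers that define a cell type, Il2ra, which encodes CD25, had a log2 fold change of 2.57 (edgeR adjusted p = 0.156) and Cd4 0.63 (edgeR adjusted p = 0.721). The myeloid gene Lyz2 had 1.24 (edgeR adjusted p = 0.407) and the haemoglobin gene Hbb-bs -3.35 (edgeR adjusted p = 0.119). The platelet gene Pf4 had 2.26 (edgeR adjusted p = 0.117) and the CD8 T cell gene Cd8a 5.95 (edgeR adjusted p = 0.0889). Cd8a was 0.158, 0.251, 27.4 and 66.2 CPM in HADA and 0.629 CPM or less in control, so that HADA replicates 1 and 2 lay within the control range. In the same list, Prf1 had -3.02 (edgeR adjusted p = 0.192) and Klrd1 -0.35 (edgeR adjusted p = 0.894). The myeloid marker Itgam is almost completely covered by other genes and was at 0 in control. Cd8b1 was the 1 marker that edgeR called, higher in HADA (log2 fold change 4.97, SE 1.0, adjusted p = 0.0301). The part of these cell types, of depth and of the receptor-gene density in the levels of the factors was not tested.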

How the data were processed

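RNA-seq was made from peripheral blood Tregs of 4 HADA and 4 control libraries, grouped and numbered by their labels. The authors used FastQC and Trimmomatic on the reads, then STAR with GRCm39 and featureCounts, and deposited raw counts per gene without normalization. Strand and multi-mapping settings are not given in the sources used here. The length deposited with each gene equals its span, introns included, for 100% of genes, and coordinates of genes are those of the matrix. Gene names came from GENCODE vM39 (98.7% of identifiers matched, 60.6% with the same coordinates).

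Counts were tested with edgeR 4.0.16 (TMM, filterByExpr, quasi-likelihood test, no covariates) in R 4.3.3, and adjusted over all 21991 genes. A gene was called past 1 in absolute log2 fold change with an adjusted p under 0.05, as in the methods of the study, whose DESeq2 1.42.0 was run as an alternative. DESeq2 gave no adjusted p for Fosb and Batf. Standard errors are the absolute log2 fold change divided by the square root of F. Log2 CPM used a prior count of 2, and the edgeR fits used the default of edgeR instead. A floor of 3 counts covers counting error only. Group differences are given for the libraries as deposited.

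The 10 genes, the lists and the marker lists were chosen with earlier results of these data known. All 10 genes are described, with the 3 listed genes of smallest p in each list, genes past the thresholds, and the most alike genes. The genes named as called without control replicate 1, and Egr3 and Fosl1, were chosen after their values were seen. So were the comparisons that set control replicate 1, or control replicates 2 and 3, apart from other controls. Alternatives were DESeq2 size factors, DESeq2, limma 3.58.1 on log2(CPM + 1), dropping the filter, a minimum of 10 counts per library, no fold threshold, a draw-down to 1477431 counts (seed 1), subtraction of the receptor-gene density, a block for the replicate number, and the removal of each library in turn. The methods were tested on simulated data. Promoters and motifs were read with Python 3.11.15, and tables made with pandas 2.3.3 and numpy 2.4.6. Other data types of the study were not analysed here. The value of 1 marker gene is not reported here.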

Additional observations from a re-analysis of the deposited data

Results flagged for a closer look

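The Batf level of control replicate 4 was far from the other controls, at 6.92 log2 CPM against 1.13 to 2.09, and its gap to the nearest of them, 0.834 of the range of the group, was above the critical value of Dixon's test. In all, 18 groups of 4 libraries were tested this way and 0.9 are expected by chance.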

How the results depend on the processing

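Of 138 fold changes of single factors under the alternatives, 121 kept their direction and their side of the threshold, 3 passed it (Fosl2 with DESeq2, and Fosl2 and Egr1 without control replicate 1) and 14 changed sign, all of Fosb, Jun or Batf and none past the threshold. Fosb gave 0.18 with no filter, 2.35 with the replicate block and 1.23 with limma. Jun gave -0.30 in the draw-down, and Batf -0.36 there and -0.15 after subtraction of the receptor-gene density. With 1 library left out, Fosb ran from -0.61 to 3.48 and Batf from -0.37 to 3.73.

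DESeq2 called 1 factor (Fosl2) and 4 of the 77 listed genes it fitted higher, against 6.23% of its genes. It gave no adjusted p for Fosb and Batf, which could not be called. Leaving out 1 library gave 0 to 2 factors and 0 to 16 listed genes higher, the highest without control replicate 1, and 0 lower. Over all genes the main count of 363 higher became 2020 with DESeq2, 93 with at least 10 counts, 158 with the block, 136 in the draw-down, 97 after subtraction and 814 with limma. The 105 lower became 3286 with DESeq2, 54 with no filter and 11 with the block. Leaving out 1 library gave 28 (control replicate 3) to 3716 higher and 1 to 4732 lower, the highest without control replicate 1, and changed both counts by over 1.5 times for HADA replicates 1, 2 and 3 and every control (HADA replicate 4 changed the lower count). The cause was not tested. Higher calls were 77.6% of all calls in the main test, 38.1% with DESeq2, 49% after subtraction and 54.6% in the draw-down. The median of all genes was -0.99 with DESeq2, -0.37 with no filter, 0.13 with limma and -0.30 without HADA replicate 1.

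The replicate numbers showed no clear pairing of the libraries: deviations of same-numbered libraries correlated at -0.207, 0.252, -0.0805 and -0.00316. These values do not settle whether the libraries were paired. The block called 0 factors, as did the main test. Atf3 could not be fitted with at least 10 counts, in the draw-down or after subtraction, nor Fosb, Batf and Egr1 with at least 10 counts. The 1477431 counts of control replicate 1 limit what it can show: Fosb and Atf3 each held 2 there.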
